A study of Arabidopsis thaliana with 18 samples.

Results

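The 33 genes described here are the heat-shock genes of an Arabidopsis thaliana seedling data set. They include 13 small heat-shock proteins, 7 chaperones of the HSP70, HSP90 and HSP100 families and 2 enzymes. A further 3 are grouped here as co-chaperones, with HSA32 among them, and 8 as transcription factors, with the co-activator MBF1C among them. All 33 genes were chosen from the 33602 gene models of the deposited tables by name and by measured values, because their counts in replicate 1 after nitrate stood apart in both genotypes. What replicate 1 after nitrate shows is therefore given as a description, with no test. Tests were run on the other 16 libraries.

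RNA was sequenced from whole seedlings grown in liquid medium at 25°C. The study compared wild type of the Col-4 accession with nlp2-2, in which a T-DNA insertion knocks out NLP2 (AT4G35270), a single allele, and asked how both respond to nitrate. Untreated seedlings of both genotypes were 10 days old. Starved seedlings were 13 days old and had spent 3 of those days without nitrogen. Nitrate seedlings were starved alike and then received 3 mM nitrate, with a time label of 30 that carries no unit. There are 3 libraries in each of 6 groups. No heat treatment is named in the labels. By the age labels starvation and age changed together. Where dates are given, untreated seedlings carry planting day 1 and harvest day 13, as the 13-day-old ones do, so labelled ages and dates do not match. No starved group was sampled at the later time, so nitrate cannot be told apart from handling or elapsed time. Where the labels give a planting date, replicate 1 was planted in February, replicate 2 in October and replicate 3 in November. No date is given for the starved wild type libraries or for nitrate replicates 1 and 2 of wild type. In whole seedlings, fewer cells of a type and less RNA per cell cannot be told apart.

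Between 14684639 and 25545031 reads were counted per library. NLP2 itself lay between 24.2 and 63.5 CPM (counts scaled to library size) in wild type and between 3.62 and 16.8 CPM in nlp2, so the genotypes did not overlap. The summed level of 5 shoot markers in the nitrate groups ran from 11950 to 12870 CPM in wild type and from 9185 to 11030 CPM in nlp2, and that of 5 root markers from 312.8 to 364.2 and from 273.2 to 321.0 CPM. The 8 seed markers, of a tissue that also makes heat-shock proteins, summed to 0.0928 to 0.4565 CPM in the 6 nitrate libraries and reached 8.79 CPM in 1 library, untreated wild type replicate 1.

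Heat-shock proteins are chaperones that plants make when proteins unfold, above all in heat. Small heat-shock proteins hold unfolded proteins in a soluble state, HSP70 and HSP90 refold and mature them, and HSP100 proteins pull aggregates apart. Heat-shock transcription factors of class A switch these genes on by binding heat-shock elements, inverted repeats of the block GAA in their promoters, while class B factors mostly act as repressors. DREB2A and the co-activator MBF1C act beside them, and HSFA2 is known for keeping the response up.

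The promoters of the genes were read from the RefSeq genome TAIR10.1, matched by gene model, since the deposited tables hold no coordinates. The search for the 3-block element GAANNTTCNNGAA, on both strands and in the 250 bases before the annotated start, found it in 7 of the 33 genes (21.2%) and in 104 of 26711 promoters of the genome (0.389%). A shorter form of 2 blocks, GAANNTTC or TTCNNGAA, which every 3-block match contains, was found in 17 of the 33 genes (51.5%) and in 16.2% of all promoters. A match describes the letters and does not show binding. The 7 genes are HSP17.4, AT1G53540, HSFA2, HSFA7A, HSFA7B, DREB2A and GolS1, and they are shown because they span small heat-shock proteins, regulators and an enzyme. Each window of 100 bases is printed 5′ to 3′ on the strand of its gene, with 1 element in capitals. The windows are HSP17.4 at chr3:16984842-16984941 (minus strand), AT1G53540 at chr1:19980199-19980298 (plus strand), HSFA2 at chr2:11135492-11135591 (plus strand), HSFA7A at chr3:19264955-19265054 (plus strand), HSFA7B at chr3:23399035-23399134 (plus strand), DREB2A at chr5:1601997-1602096 (plus strand) and GolS1 at chr2:19370523-19370622 (minus strand).
HSP17.4: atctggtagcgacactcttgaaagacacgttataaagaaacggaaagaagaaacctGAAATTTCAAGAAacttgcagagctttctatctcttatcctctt
AT1G53540: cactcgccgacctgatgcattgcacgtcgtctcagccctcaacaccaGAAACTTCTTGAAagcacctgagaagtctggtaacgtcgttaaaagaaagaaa
HSFA2: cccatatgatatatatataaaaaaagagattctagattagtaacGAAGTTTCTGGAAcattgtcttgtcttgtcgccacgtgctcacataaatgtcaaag
HSFA7A: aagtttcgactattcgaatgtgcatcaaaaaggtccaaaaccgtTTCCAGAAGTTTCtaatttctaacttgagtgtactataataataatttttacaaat
HSFA7B: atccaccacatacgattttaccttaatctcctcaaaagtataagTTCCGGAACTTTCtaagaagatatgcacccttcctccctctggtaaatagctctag
DREB2A: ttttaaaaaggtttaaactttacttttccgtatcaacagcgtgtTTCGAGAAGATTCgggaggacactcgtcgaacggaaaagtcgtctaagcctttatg
GolS1: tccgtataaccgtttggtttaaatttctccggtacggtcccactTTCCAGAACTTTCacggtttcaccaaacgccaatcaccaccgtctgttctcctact
In HSP17.4 the printed element ends 31 bases before the start and in AT1G53540 40 bases before it, whereas in DREB2A it ends 151 bases before it. HSP17.4 and HSFA7A hold 2 such elements each. The 7 genes with the element and the 25 measured genes without it had median ratios of replicate 1 to the mean of replicates 2 and 3 after nitrate of 5.08 and 5.30 in wild type, and of 6.90 and 5.32 in nlp2. Among the other genes measured, 5 of 77 with the element and 138 of 20479 without it were at least 2-fold higher in replicate 1 in both genotypes.

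The group as a whole took up a small share of the counted reads before nitrate and a much larger one in replicate 1 after nitrate. In untreated wild type the 33 genes held 0.0993%, 0.123% and 0.155% of the reads of replicates 1, 2 and 3, and in untreated nlp2 0.0915%, 0.196% and 0.164%. After starvation the shares were 0.355%, 0.202% and 0.321% in wild type, against 0.356%, 0.165% and 0.328% for nlp2. After nitrate they were 2.99%, 0.265% and 0.809% in wild type, against 2.40%, 0.265% and 0.426% for nlp2. Replicate 1 was the highest of the 3 nitrate libraries in both genotypes, replicate 3 came next and replicate 2 was the lowest.

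**Figure D1:**
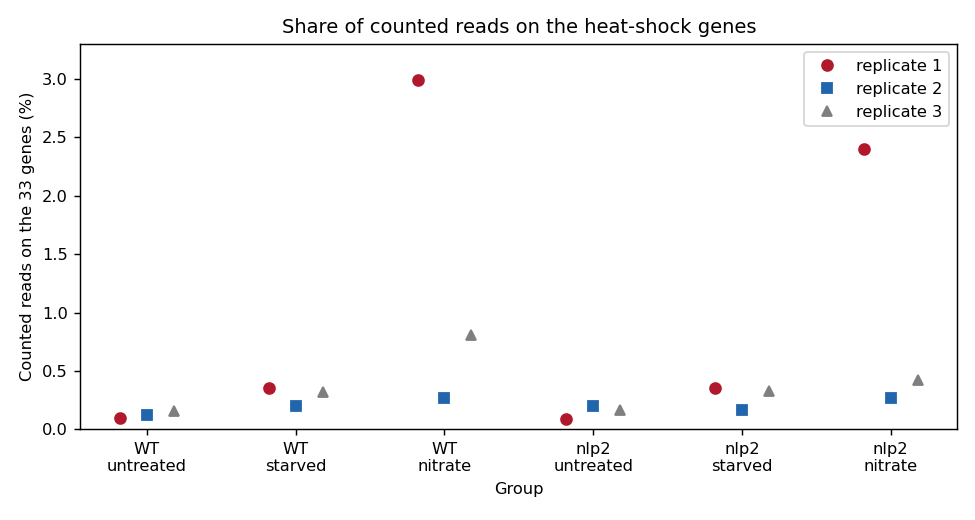
Percent of counted reads on the 33 heat-shock genes (linear vertical axis) in each library of the 6 groups (horizontal axis); each point is 1 library, and colour and shape give its replicate number. The 2 nitrate libraries of replicate 1 lie at 2.99% and 2.40%, and the other 16 lie at 0.809% or lower.

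Replicate 1 after nitrate was the highest library of its group for each of the 32 genes that had reads, in both genotypes. Of all genes, 37.3% in wild type and 36.1% in nlp2 were highest there. The ratio of replicate 1 to the mean of replicates 2 and 3 ran from 2.13 to 12.7 with a median of 5.19 in wild type, and from 1.70 to 16.9 with a median of 6.19 in nlp2. The median over all 21347 genes measured was 0.991 in both. In this description 30 of the 32 genes, and 0.876% of all genes, were at least 2-fold higher in both genotypes. HSP18.2, at 1.70 in nlp2, and CLPB3, at 1.86 in nlp2, were the exceptions. These values chose the genes and support nothing further.

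**Figure D2:**
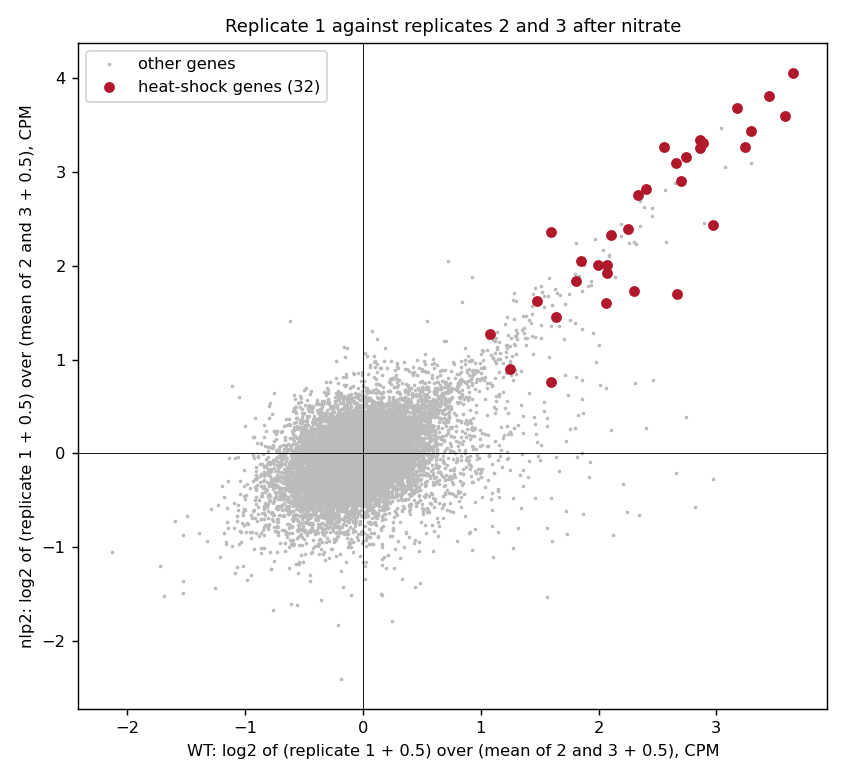
Replicate 1 over the mean of replicates 2 and 3 after nitrate in wild type (horizontal axis) and nlp2 (vertical axis), both as log2 of CPM with 0.5 added; each point is 1 of 21347 genes, with the 32 heat-shock genes in red. The red points lie above 0 on both axes, a pattern that was the reason for choosing them.

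Among small heat-shock proteins of the cytosol, HSP17.4 (AT3G46230) stood at 12.1, 24.0 and 49.95 CPM in untreated wild type, 53.4, 33.5 and 58.6 CPM after starvation, and 1066, 49.1 and 128.5 CPM after nitrate. In nlp2 it stood at 9.91, 47.4 and 40.8 CPM, then at 71.6, 37.7 and 63.4 CPM, and after nitrate at 585.2, 37.5 and 58.4 CPM. Replicate 1 stood far above the rest, while nitrate replicate 2 lay inside the starved range in wild type and just below it in nlp2. HSP17.6A (AT5G12030) and HSP17.6II (AT5G12020), which lie close together on chromosome 5, reached 931.5 and 501.5 CPM in wild type replicate 1 and 618.2 and 302.9 CPM in that of nlp2. HSP18.2 (AT5G59720) moved least, from 55.7 CPM in starved replicate 1 to 143.3 CPM in nitrate replicate 1 of wild type and from 72.1 to 78.8 CPM in nlp2.

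A further 6 genes are annotated as HSP20-like chaperones and carry no symbol. AT1G07400 had the largest ratio of the group, with 932.9 CPM in replicate 1 against 36.6 and 110.8 CPM in replicates 2 and 3 of wild type, and 597.4 against 26.4 and 44.4 CPM in nlp2. AT1G59860 was low before nitrate, from 3.54 to 14.4 CPM over the 12 libraries, and stood at 432.5, 21.8 and 96.1 CPM after nitrate in wild type and at 280.8, 17.8 and 39.8 CPM in nlp2. Every nitrate library of AT1G59860, replicate 2 included, lay above every library before nitrate. AT5G51440 stood at 1015, 68.9 and 241.9 CPM in wild type and 807.3, 76.3 and 138.0 CPM in nlp2, where the starved libraries had 92.4, 34.4 and 65.9 CPM. The ratios of AT1G53540, AT1G52560 and AT5G37670 lay between 3.47 and 10.7 over both genotypes.

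Small heat-shock proteins of other compartments were likewise highest in replicate 1 after nitrate. HSP23.6-MITO (AT4G25200), of the mitochondrion, stood at 341.4, 17.2 and 51.7 CPM after nitrate in wild type and at 233.5, 16.9 and 25.3 CPM in nlp2. HSP22.0 (AT4G10250), of the endomembrane system, stood at 114.3, 15.98 and 37.7 CPM and at 76.9, 15.1 and 24.5 CPM. HSP21 (AT4G27670), which sits in the chloroplast, reached 25.4 CPM in replicate 1 of wild type and 15.2 CPM in that of nlp2. The other nitrate libraries of HSP21, at 4.26 to 7.15 CPM, lay below the starved range of their genotype, except wild type replicate 3, which lay inside it.

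The large chaperones held most of the reads. HSP70 (AT3G12580), a cytosolic HSP70, stood at 265.4, 304.6 and 371.6 CPM in untreated wild type, at 1255, 564.5 and 1106 CPM after starvation and at 8678, 760.7 and 2515 CPM after nitrate. In nlp2 the values were 229.7, 472.9 and 423.6 CPM, then 1198, 323.2 and 1086 CPM, then 7269, 740.0 and 1310 CPM. Replicate 2 was the lowest of the 3 in both starved groups and both nitrate groups. HSP90.1 (AT5G52640), the heat-inducible cytosolic HSP90, ran from 134.5 to 534.8 CPM before nitrate and reached 6604 CPM in replicate 1 of wild type and 5191 CPM in that of nlp2. HSP101 (AT1G74310), the cytosolic disaggregase needed for acquired thermotolerance, stood at 92.5, 60.8 and 73.5 CPM in starved wild type and at 2434, 124.0 and 545.9 CPM after nitrate, and in nlp2 at 74.5, 49.8 and 78.6 CPM and at 1638, 106.0 and 216.1 CPM. For HSP101 the starved and nitrate groups did not overlap in either genotype.

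Of the HSP101 relatives in organelles, the mitochondrial CLPB4 (AT2G25140) reached 320.0 and 253.1 CPM in replicate 1 of wild type and nlp2, against 52.0 to 107.8 CPM in the other nitrate libraries. The chloroplast CLPB3 (AT5G15450) stood at 251.1, 83.3 and 127.5 CPM in wild type and at 186.9, 95.8 and 104.6 CPM in nlp2. Replicates 2 and 3 of CLPB3 lay below the starved range of 117.5 to 145.8 CPM, except wild type replicate 3, which lay inside it. Hsp70b (AT1G16030) and HSP70T-2 (AT2G32120), further HSP70 proteins, had ratios of 4.96 and 4.79 in wild type, against 3.35 and 5.32 for nlp2. Per kilobase of gene model, the highest levels in wild type replicate 1 after nitrate were those of HSP70, at 3803 CPM per kilobase, and HSP90.1, at 2668, and the lowest of the measured genes was HSFA7B, at 8.01.

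The co-chaperones and the transcription factors included the steepest differences between nitrate and starved libraries of replicate 1. BAG6 (AT2G46240), a BAG-domain co-chaperone, stood at 31.1, 36.2 and 37.2 CPM in starved wild type and at 1429, 81.4 and 345.8 CPM after nitrate, and in nlp2 at 32.12, 31.8 and 32.8 CPM and at 863.6, 64.0 and 128.7 CPM. The ratio of nitrate to starved replicate 1 was 45.95 in wild type and 26.9 in nlp2 for BAG6, and 38.1 and 35.0 for HSFA2 (AT2G26150). HSFA2 stood at 4.32, 6.87 and 9.49 CPM in untreated wild type, 19.1, 12.1 and 14.5 CPM after starvation and 727.2, 27.9 and 132.7 CPM after nitrate. In nlp2 it stood at 3.62, 10.95 and 9.74 CPM, then 14.98, 9.21 and 15.9 CPM, then 524.6, 23.4 and 57.5 CPM. Neither BAG6 nor HSFA2 had a starved library that reached a nitrate library. ROF2 (AT5G48570), an FKBP-type peptidyl-prolyl isomerase, reached 2900 and 2267 CPM, and HSA32 (AT4G21320), needed for the memory of heat, reached 109.9 and 78.8 CPM.

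MBF1C (AT3G24500) stood at 1099, 125.9 and 384.4 CPM after nitrate in wild type and at 923.7, 125.2 and 242.4 CPM in nlp2, where the 6 starved libraries lay between 52.1 and 103.0 CPM. DREB2A (AT5G05410) stood at 96.0, 17.6 and 43.4 CPM and at 65.7, 17.7 and 29.7 CPM, and all 6 values lay above the starved range of 7.78 to 10.0 CPM. The class A factor HSFA7A (AT3G51910) and the class B factors HSFB2A (AT5G62020) and HSFB2B (AT4G11660) reached 208.8, 93.3 and 121.2 CPM in wild type replicate 1. HSFA7B (AT3G63350) was close to the detection limit, with 0, 2 and 3 reads in starved wild type and 160, 21 and 61 reads after nitrate, and with 5, 3 and 1 reads and 105, 11 and 22 reads in nlp2. HSFB1 (AT4G36990) had 0 reads in all 18 libraries, as did a second gene model of the same length, AT4G36988, and the deposited counts leave out reads with equally good hits elsewhere. The enzymes, GolS1 (AT2G47180), a galactinol synthase, and APX2 (AT3G09640), an ascorbate peroxidase, reached 880.3 and 31.1 CPM in wild type replicate 1.

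**Figure D3:**
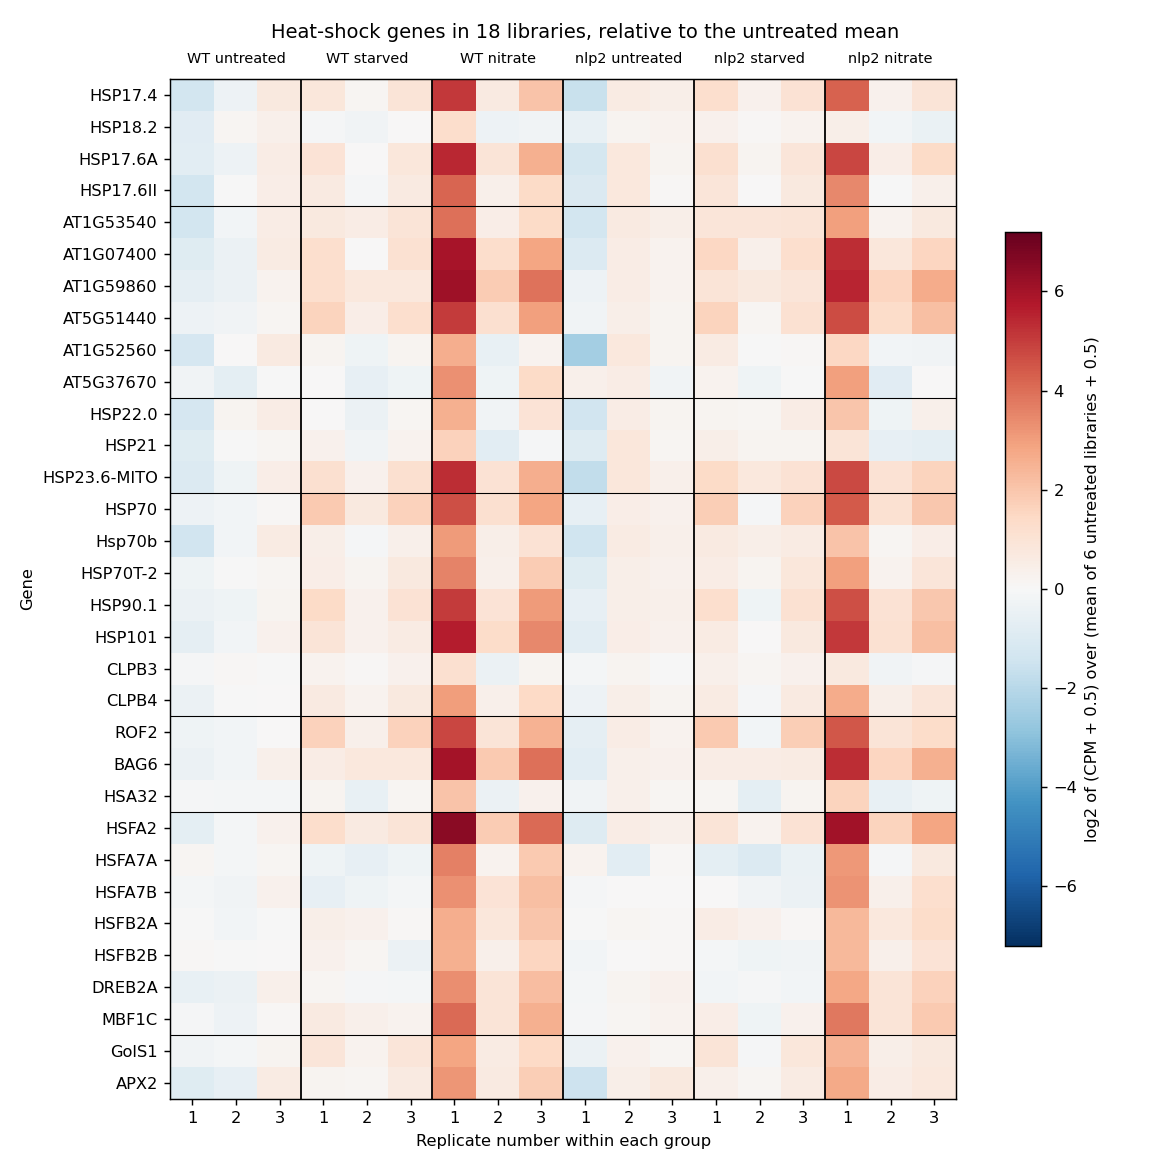
Level of the 32 measured heat-shock genes (vertical axis, grouped by role) in the 18 libraries (horizontal axis, 3 replicates for each of 6 groups) as log2 of CPM with 0.5 added over the mean of the 6 untreated libraries with 0.5 added; red is higher and blue lower. Replicate 1 after nitrate is the darkest red column in both genotypes, and untreated replicate 1 is the bluest.

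**Figure D4:**
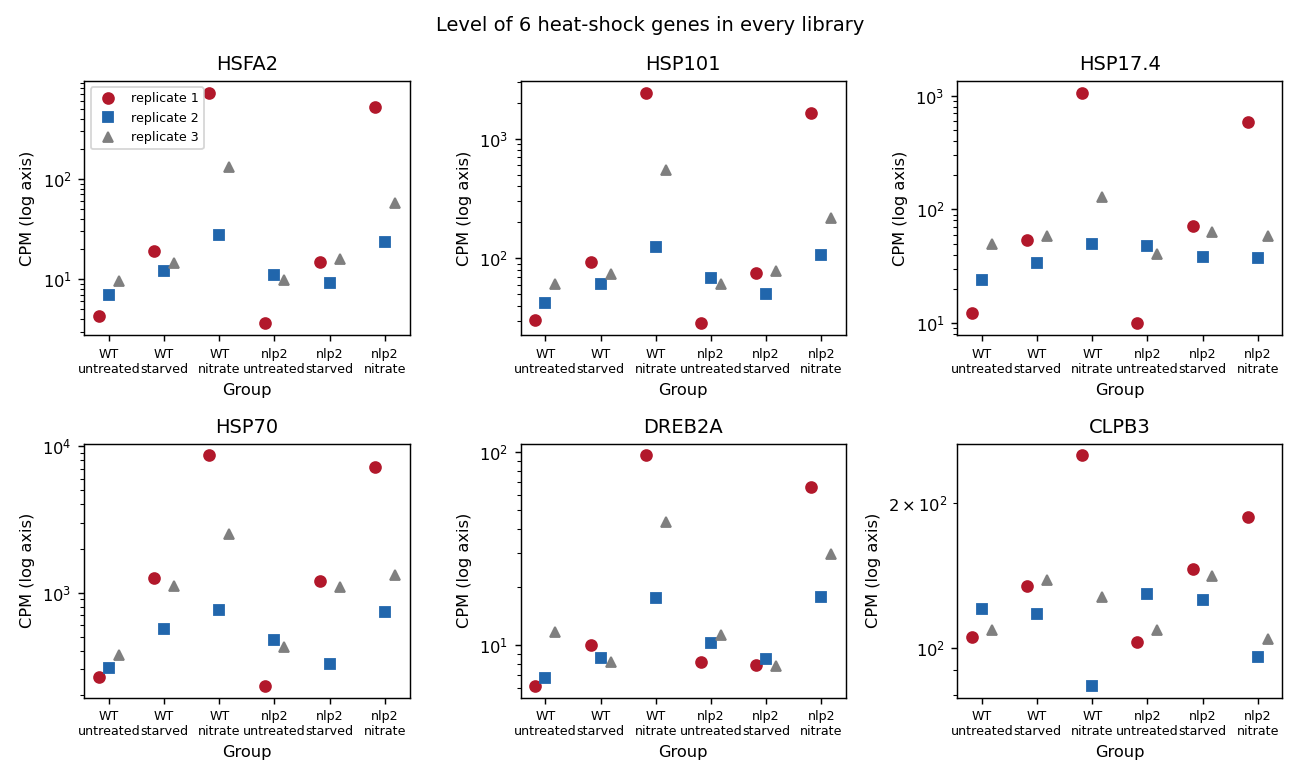
CPM (logarithmic vertical axes) of HSFA2, HSP101, HSP17.4, HSP70, DREB2A and CLPB3 in each library of the 6 groups (horizontal axis); each point is 1 library, with colour and shape for the replicate number. Replicate 1 after nitrate lies highest in all 6 panels, at 727.2 CPM in wild type for HSFA2 and 251.1 CPM for CLPB3.

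The same order in replicate 1 was compared across genotypes. Wild type replicate 1 after nitrate exceeded that of nlp2 for all 32 genes, by 1.05-fold for HSFA7B to 2.21-fold for AT1G52560 with a median of 1.45-fold. With 1 library on each side, this difference has no replicate check, and the share of all genes higher in wild type is not given here.

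Starvation was tested over 3 replicates a group. In wild type 4 of the 32 tested genes rose and 0 fell (edgeR quasi-likelihood test, Benjamini-Hochberg adjustment over 21471 genes, called below 0.05), when 30.3% of all genes were called and 13.6% rose. In this fit the share of the heat-shock genes that rose is near that of all genes. The 4 were HSP70, with a log2 fold change of 1.62 ± 0.51 (standard error; adjusted p = 0.029), ROF2 (1.48 ± 0.53; adjusted p = 0.0478), AT5G51440 (1.30 ± 0.46; adjusted p = 0.046) and GolS1 (0.75 ± 0.27; adjusted p = 0.0484). With the replicate number as a block 2 genes rose, and with all 18 libraries in the fit 0 did. The count was also 0 when replicate 1 or 3 of starved wild type, or replicate 1 or 2 of untreated wild type, was left out. In nlp2 0 of 32 genes were called, when 31.2% of all genes were, with 2 at an unadjusted p below 0.05 and the smallest adjusted p at 0.0918 for ROF2. The median log2 fold change of the 32 genes was 0.54 in wild type and 0.40 in nlp2, against medians of 0.00 and 0.01 over all genes. Fits limited to the 12 untreated and starved libraries called 11 of 31 genes in wild type, all higher, when 13.2% of all genes rose. That share of the heat-shock genes is above the share of all genes. In nlp2 these fits called 3 of 31, 2 higher and 1 lower, when 28.9% of all genes were called. Without replicate 2 of starved nlp2, 3 genes were called in nlp2.

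Nitrate was tested with replicates 2 and 3 only. The genes had been chosen with the nitrate values known, so the counts stand beside the share of all genes without further reading. In wild type 10 of 32 genes rose and 0 fell, when 17.4% of all genes were called and 9.62% rose (edgeR quasi-likelihood test). These were all 7 tested transcription factors together with BAG6, AT1G59860 and HSP101. HSFA7B showed the largest log2 fold change, 4.23 ± 0.69, on 5 reads in the starved group. This gene passed the count filter only through the nitrate libraries, with 0 to 8 reads in each library before nitrate. Its call was therefore favoured by the filter and supports nothing. BAG6 rose by 2.61 ± 0.48, HSFA2 by 2.40 ± 0.57, AT1G59860 by 2.34 ± 0.49 and HSP101 by 2.15 ± 0.52. HSFB2B, at 1.06 ± 0.26, had the smallest change of the 10. The 4 small heat-shock proteins grouped here as cytosolic, HSP17.4, HSP18.2, HSP17.6A and HSP17.6II, had log2 values from -0.22 to 1.31, and none was called. Of the 6 HSP20-like genes without a symbol, which were not sorted by compartment, 1 was called, AT1G59860. Without nitrate replicate 3 of wild type, which leaves 1 library in that group, the median over the 32 genes went from 1.06 to 0.02. Without nitrate replicate 2 of wild type it was 1.54.

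In nlp2 5 genes rose and 1 fell with nitrate in replicates 2 and 3, when 16.5% of all genes were called and 9.29% rose. The genes that rose were HSFA7B (2.35 ± 0.71), BAG6 (1.59 ± 0.47), DREB2A (1.55 ± 0.32), MBF1C (1.32 ± 0.37) and HSFB2B (0.95 ± 0.27). The call of HSFA7B again rests on a filter that it passed only through the nitrate libraries. CLPB3 fell by 0.45 ± 0.15 on the log2 scale (adjusted p = 0.0467). The median over the 32 genes was 0.23, beside 0.00 over all genes. It was -0.20 without nitrate replicate 3 of nlp2 and -0.05 without its starved replicate 2. The count fell to 1 without starved replicate 3 of nlp2, when 13.5% of all genes were called. It fell to 2 without starved replicate 2 of nlp2, when 15% were. With the replicate block 4 genes rose and 1 fell.

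Replicate 3 stood above replicate 2 after nitrate in wild type for all 32 genes, with a median ratio of 2.70, and in nlp2 for 29 of 32, with a median ratio of 1.54. The medians over all genes were 1.00 and 1.01. The ratio was largest for HSFA2 in wild type, at 4.76, and for HSFA7B in nlp2, at 2.65. With 1 library of each number in a genotype, and genes chosen with these values known, the order is given as a description.

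The genotypes did not differ detectably at single genes. In untreated seedlings 0 of the 32 genes were called between nlp2 and wild type (0.433% of all genes were), and 0 at an unadjusted p below 0.05. After starvation 0 were called (0.522% of all genes), and likewise 0 at an unadjusted p below 0.05. After nitrate, in replicates 2 and 3, 0 were called (0.755% of all genes), with 4 at an unadjusted p below 0.05 and the smallest adjusted p at 0.466. All 32 log2 differences after nitrate were negative, lower in nlp2, from -1.20 for AT5G37670 to -0.01, with a median of -0.68. Without nitrate replicate 3 of wild type 24 of the 32 were positive, and the median was 0.23. That fit sets wild type replicate 2 alone against nlp2 replicates 2 and 3, so it mixes genotype with replicate number. With the replicate number as a block all 32 stayed negative, with a median of -0.58. Without nitrate replicate 2 of wild type, 32 were negative, with a median of -1.17. Without nitrate replicate 2 or 3 of nlp2, 32 and 31 were negative, with medians of -0.39 and -0.99. These fits also mix genotype with replicate number. Of the fits with 1 nitrate library left out, only that without replicate 3 of wild type turned the direction. DESeq2 also called 0 of the genes in each of these 3 comparisons.

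Whether the genotypes responded differently was tested as a difference of responses. For starvation 0 of 32 genes and 0% of all genes were called by edgeR, with 0 of the 32 at an unadjusted p below 0.05, and for nitrate again 0 and 0%, with 1 of the 32 below it. DESeq2 called 0 of the 32 genes and 3 of all genes in each. The log2 change with nitrate was more negative or less positive in nlp2 than in wild type for all 32 genes, with a median difference of -0.70. Without nitrate replicate 3 of wild type the difference was positive for 20 of the 32, with a median of 0.13. Without nitrate replicate 2 of wild type it was negative for all 32, with a median of -1.23. Without nitrate replicate 2 or 3 of nlp2 it was negative for 28 and 32, with medians of -0.47 and -0.99. With the replicate number as a block it was negative for all 32, with a median of -0.63. AT5G37670, at -1.46 ± 0.60, had the smallest p of the 32 (adjusted p = 1.00). The comparisons of genotype after nitrate and of the nitrate response share the nitrate libraries.

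Before nitrate, replicate 1 differed from the mean of replicates 2 and 3 in opposite ways in the untreated and the starved libraries. Over all 12 of these libraries together 0 of 31 genes were called, when 22.5% of all genes were, with 2 at an unadjusted p below 0.05, and DESeq2 called 1. In the 6 untreated libraries alone 19 of 31 genes were lower in replicate 1 and 1 was higher (25.5% of all genes called, 12.2% lower). HSP22.0 was lower by a log2 difference of -1.71 ± 0.13, AT1G52560 of -2.44 ± 0.50, Hsp70b of -1.79 ± 0.26 and HSFA2 of -1.20 ± 0.18. The gene that was higher was HSFA7A, at 0.38 ± 0.12. Replicate 1 was the lowest untreated library for 25 of 32 genes in wild type and 30 of 32 in nlp2, beside 35.7% and 39.1% of all genes.

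In the 6 starved libraries alone 14 of 31 genes were higher in replicate 1 and 0 lower (11.0% of all genes called, 5.62% higher). AT5G51440, at 0.84 ± 0.06, HSP90.1, at 0.76 ± 0.13, and HSP17.6A, at 0.60 ± 0.07, were among them. Replicate 2 was the lowest starved library for 26 of 32 genes in wild type and 29 of 32 in nlp2, beside 33.3% and 36.4% of all genes. Replicate 1 was the highest for 18 and 21 (37.3% and 37.4% of all genes), and replicate 3 for 14 and 10 (32.8% and 29.7%). Replicate 1 thus stood mainly above replicate 2. In this fit, that of the untreated libraries and the next, each replicate number has 1 library per genotype and condition. Their errors measure how alike the genotypes were, not the spread between plantings. A test of the difference itself, in a fit with a replicate effect within each condition that was added after these values were seen, called 7 of 32 genes with a higher replicate 1 effect in starved than in untreated libraries and 0 with a lower one, when 3.46% of all genes were called and 1.88% were higher. The 7 were HSP18.2 (0.97 ± 0.12; adjusted p = 0.000144), HSP22.0 (1.71 ± 0.20), HSP21 (1.54 ± 0.30), Hsp70b (1.99 ± 0.29), AT1G53540 (1.69 ± 0.29), CLPB4 (0.75 ± 0.17) and GolS1 (0.88 ± 0.19). None of the 7 tested transcription factors was among them. The count fell to 2 when replicate 1 of starved wild type, of starved nlp2 or of untreated nlp2 was left out, and to 3 or 4 without starved replicate 3 of either genotype or starved replicate 2 of nlp2. It rose to 15 and 11 without untreated replicate 2 of wild type and of nlp2. Planting date, where the labels give it, goes with the replicate number, and its part in these differences was not tested.

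**Figure D5:**
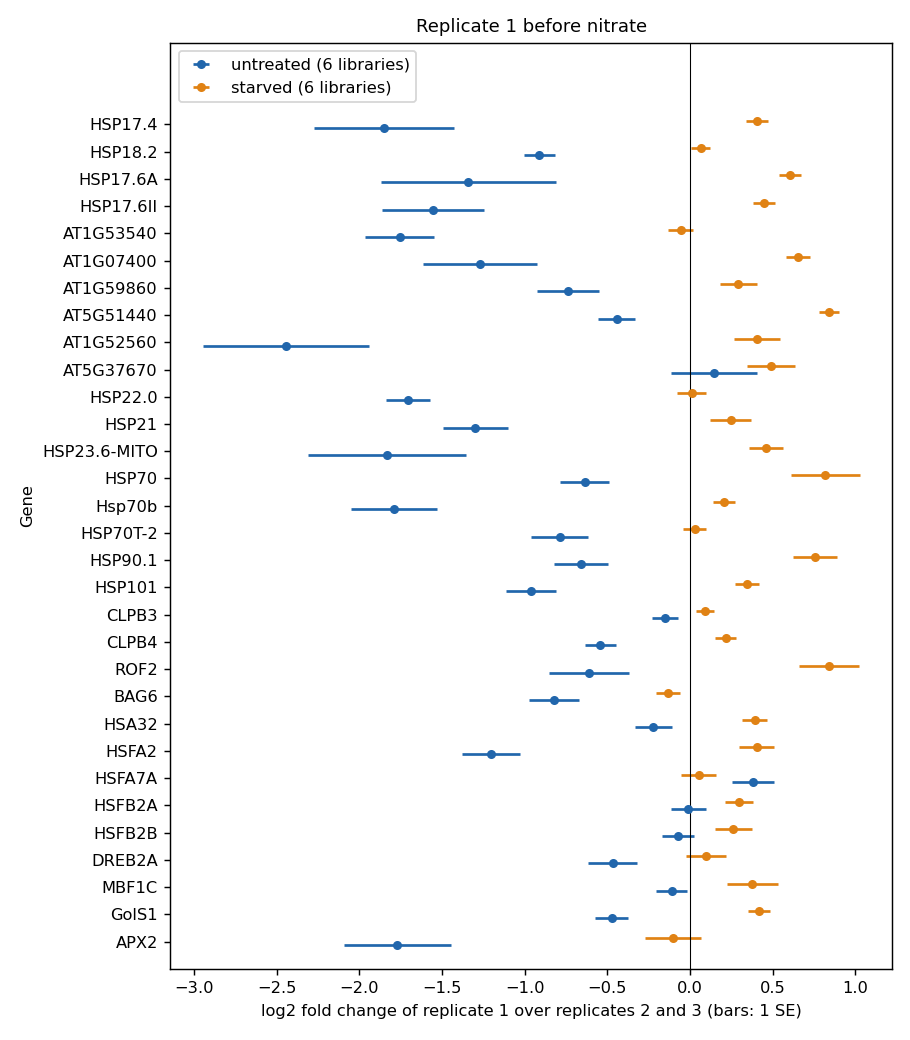
Difference of replicate 1 from replicates 2 and 3 (log2 fold change, horizontal axis; bars are 1 standard error) for 31 heat-shock genes (vertical axis) in the 6 untreated (blue) and the 6 starved (orange) libraries. HSP22.0 lies at -1.71 in untreated libraries, and AT5G51440 at 0.84 in starved ones.

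Other chaperone genes, from lists drawn up for this description, were partly high in replicate 1 after nitrate. At least a 2-fold ratio in both genotypes was seen for 3 of 6 other small heat-shock proteins, 5 of 10 other HSP70 genes outside the endoplasmic reticulum, 2 of 6 other HSP90 genes, 8 of 13 other co-chaperones and 4 of 8 chaperonins. It was seen for 0 of 13 other heat-shock factors and 0 of 3 other HSP100 and Clp genes. Among genes of the unfolded protein response of the endoplasmic reticulum 1 of 15 reached it. So did 0 of 12 touch and rapid stress genes, 0 of 10 hypoxia genes and 1 of 8 related stress genes. The share over all genes was 0.876%. AT2G29500, annotated as an HSP20-like chaperone, had ratios of 9.87 in wild type and 8.67 in nlp2. FES1A (AT3G09350) and HOP3 (AT4G12400), which assist HSP70 and HSP90, had ratios of 6.29 and 5.48 in wild type, against 7.42 and 6.15 for nlp2. HSC70-2 (AT5G02490) had 3.76 and 3.46, and HSP90.2 (AT5G56030) 3.68 and 4.01.

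A ranking of 15816 genes with at least 5 CPM in both replicate 1 nitrate libraries, by the smaller of the 2 genotypes' ratios of replicate 1 to the higher of replicates 2 and 3, held 18 of the heat-shock genes among the first 33 and 28 among the first 100. The genes most like them that are not of the group were AT2G04135, AT2G29500, AT1G54050, AT1G48700, AT1G72660, AT5G54165, FES1A, AT5G25450, HOP3, AT2G20560, AT4G23493 and AT3G10020, with ratios to the mean of replicates 2 and 3 from 5.11 to 11.3 in wild type and from 4.91 to 12.4 in nlp2. This likeness rests on 6 nitrate libraries. The ranks of the heat-shock genes follow from their choice, which used the same values, and support nothing further. Because the 5 CPM minimum was set on replicate 1 alone, genes low in the other libraries, such as AT2G04135 and AT1G48700, could enter.

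In the nitrate test of replicates 2 and 3, the same lists gave calls for 2 of 6 other small heat-shock proteins, 3 of 10 other HSP70 genes, 3 of 6 other HSP90 genes, 1 of 13 other co-chaperones and 1 of 13 other heat-shock factors in wild type. All were higher, beside 17.4% of all genes called and 9.62% higher. In nlp2 the counts were 1, 2, 2, 0 and 1, all higher, beside 16.5% of all genes called and 9.29% higher. On the log2 scale HSP90.2 rose by 1.08 ± 0.25 in wild type, by 0.86 ± 0.25 in the mutant, and FES1A by 1.36 ± 0.35 in wild type. The heat-shock factor called was HSFC1 in wild type (0.43 ± 0.12) and HSFA1E in nlp2 (0.51 ± 0.16). Of the touch and rapid stress genes 9 of 12 rose in each genotype and 1 fell, when 9.62% and 9.29% of all genes rose. Of the chaperonins 0 of 8 were called in either genotype. Starvation lowered 4 of the 8 in both, beside 30.3% and 31.2% of all genes called in either direction and 16.7% and 17% lowered.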

How the data were processed

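Counts of reads per gene model were deposited for each library, and they leave out reads with equally good hits elsewhere, per the file headers. The submitters' processing notes name Bowtie2 and the build TAIR10. Whether counting used strand is not stated in them, so HSP17.4, HSP101, CLPB3, HSFB2B, DREB2A, MBF1C and GolS1, which overlap genes on the opposite strand, are uncertain. Between 14684639 and 25545031 reads were counted per library, which limits the precision of low counts, and the p-values measure the spread between these samples.

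The members and lists were chosen with earlier results of these data known. Counts were fitted with edgeR 4.0.16 in R 4.3.3 (TMM, filterByExpr with count minimum 10 and total minimum 15, robust quasi-likelihood, 10 residual degrees of freedom), and DESeq2 1.42.0 was an alternative. The comparison of replicate 1 over the 12 libraries before nitrate had 6 residual degrees of freedom. The fit with a replicate effect within each condition had 5. Of 33 members 32 passed the filter. Replicate 1 of both nitrate groups was left out of the tests. Levels are CPM on TMM-scaled totals of 18 libraries. Ages and doses are the labels'. All 33 genes may be named. Of each other list, up to 4 called genes with the smallest p and up to 4 with the largest ratio of replicate 1 to the higher of replicates 2 and 3 after nitrate, in the genotype where it is smaller, were eligible, and of all other genes the 12 with the largest such ratio. The fits were tested on simulated data. Replicate numbers go with planting month in the 13 of 18 libraries whose labels give one. For the starved wild type libraries and nitrate replicates 1 and 2 of wild type, the pairing by number is assumed. The deviations from group means of 45 pairs of libraries with the same number had a median correlation of 0.24, the lowest at -0.11 and 33 above 0.1, against -0.08 for 90 pairs with different numbers.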

Additional observations from a re-analysis of the deposited data

Results flagged for a closer look

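In the 16 libraries tested, 7 heat-shock genes (HSP18.2, HSP22.0, HSP21, Hsp70b, AT1G53540, CLPB4 and GolS1) had a larger difference between replicate 1 and replicates 2 and 3 in starved than in untreated seedlings. They drew attention because the test of that difference, not only its 2 sides, passed the threshold. The model was added after the data had been seen, and the part of planting date was not tested. Replicate 1 after nitrate was not tested, since its values chose the genes.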

How the results depend on the processing

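The numbers of called genes changed with the settings as follows. The 27 calls on single heat-shock genes for starvation, for nitrate and for the difference in replicate 1 were recomputed 313 times under the alternatives: 218 kept the call, 95 lost it and none of these changed sign. Calls within the 6 untreated or 6 starved libraries and on genes of the other lists were not recomputed.
For starvation in wild type, where 4 genes were called, 0 were called with no filter on low counts, 0 with all 18 libraries, 2 with the replicate block and 11 in the 12 untreated and starved libraries, and 0 to 4 with 1 library left out. For starvation in nlp2, where 0 were called, 3 were called in the 12 libraries and 0 to 3 with 1 left out. For nitrate in wild type, where 10 were called, 4 to 16 were called with 1 library left out. For nitrate in nlp2, where 6 were called, 3 were called with no filter and 0 to 7 with 1 left out; the replicate block, with 5, moved no count of heat-shock genes by over 1.5 times other than that for starvation in wild type. For replicate 1 before nitrate, where 0 were called, DESeq2 called 1, the 6 starved libraries 14, the 6 untreated libraries 20, and leaving out 1 library 0 to 1. For the difference between starved and untreated in replicate 1, where 7 were called, RLE scaling called 11, DESeq2 19 and leaving out 1 library 2 to 15. Without nitrate replicate 3 of wild type the direction of the genotype differences after nitrate turned for most heat-shock genes. With any other nitrate library left out, or with the replicate block, it did not. The counts of 0 for genotype and for the difference of responses stayed 0 in every alternative run, and the causes of these changes were not tested.
Over all genes, DESeq2 and the replicate block called 172 and 244 genes for genotype in untreated seedlings (93 in the text's fit), 223 and 284 after starvation (112), and 301 and 442 after nitrate (162). For the difference of responses, with 0, DESeq2 called 3 each and the block 1 for starvation. With 1 library left out the all-gene counts of nitrate fell to 2125 of 3733 in wild type and 2171 of 3547 in nlp2, those of replicate 1 before nitrate fell to 1945 of 4744, and those of the replicate 1 difference ran from 151 to 2074 (743, and 432 by DESeq2). For genotype, leaving out 1 library gave as few as 40, 66 and 44. HSFA7B and APX2 are limited by few reads.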
